A study of Mus musculus with 6 samples.

Results

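Lipid-associated macrophages are tissue macrophages that take up and store lipid, and the 10 genes described here are those usually used to recognise them: Gpnmb, Spp1, Trem2, Lgals3, Fabp5, Fabp4, Cd9, Cd63, Lpl and Plin2. They were chosen by symbol, matched to the Ensembl identifiers of the count table through GENCODE vM21, and all 10 were found among its 21780 genes and among the 14429 genes tested. In such cells the surface receptor TREM2 binds lipids and lipoproteins and signals through the adaptor TYROBP and the kinase SYK, lipids enter through scavenger receptors or after lipoprotein lipase has split them from lipoproteins, fatty acid-binding proteins carry them through the cytoplasm, and perilipin-2 coats the droplets in which they are stored. GPNMB, CD63 and CD9 are membrane proteins of lysosomes, endosomes and the cell surface, and osteopontin (Spp1) and galectin-3 (Lgals3) are secreted. These cells are best known from obese adipose tissue, atherosclerotic plaques and injured liver.

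To characterise the myeloid cells of the pancreas after β-glucan, viable CD45+CD11b+ cells were sorted from collagenase-digested pancreata of wild-type C57BL/6J mice of both sexes, 6 to 8 weeks of age, on day 7. One group had received a single intraperitoneal dose of 1 mg of whole glucan particles (WGP), hollow yeast particles of β-glucan that phagocytes take up through Dectin-1, in PBS, and the controls had received PBS alone. There were 3 libraries of polyA RNA per group, and the study describes each sample as a separate animal from 1 experiment. CD11b is shared by macrophages, monocytes, neutrophils and some dendritic and B cells, so each value is an average over whatever cells the gate held, and more cells of a type cannot be told apart from more RNA per cell.

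The libraries were of similar depth, with 35334645 to 40580936 counts in PBS and 38240913 to 43341834 in WGP. The defining genes of macrophages and monocytes were present, with Csf1r at 3367 ± 1187 CPM in PBS and 2713 ± 117 CPM in WGP (SD, n = 3, as for every mean given; CPM is the count per 10⁶ counts after TMM scaling). Other marker lists moved with the groups, and the part they had in the results below was not tested. The summed level of 10 markers of resident macrophages was between 5267 and 13482 CPM in PBS and between 962 and 1076 CPM in WGP, and that of 8 markers of Ly6C-high monocytes was between 1849 and 3051 CPM and between 6497 and 8210 CPM. Acinar cell markers summed to between 1257 and 4742 CPM in PBS and to between 307 and 544 CPM in WGP, and B cell markers to between 361 and 2414 CPM and between 86.8 and 169 CPM. Among single libraries, WGP replicate 2 stood apart in 7 fibroblast markers, which summed to 1851 CPM there and to between 37.0 and 190 CPM in the other 5. PBS replicates 2 and 3 held 8972 and 10063 counts of Y-linked genes, while the other 4 libraries held at most 1. Whatever follows the Y-linked counts cannot be told apart from the treatment in PBS replicates 2 and 3, and only PBS replicate 1 is free of that difference from the WGP libraries.

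The sequences before the start sites are shown for the called members that have a window (Gpnmb, Spp1 and Lgals3), for Trem2, the receptor that defines these macrophages, and for Cd63, which was lower in WGP. RefSeq windows on GRCm38.p6, the build of the counts (mm10), were held for 7 of the 10 members (not Fabp4, Fabp5 or Lpl), and the 250 bases before the start site are given 5′ to 3′ on the strand of the gene, with capitals for the motif matches found. All 5 genes printed lie on the plus strand. The windows are chr6:49036268-49036517 for Gpnmb, chr5:104434861-104435110 for Spp1, chr17:48346151-48346400 for Trem2, chr14:47373610-47373859 for Lgals3 and chr10:128909095-128909344 for Cd63. Those of Lgals3 and Cd63 lie inside the longer gene models of GENCODE vM21, and Spp1 has a second RefSeq start further downstream whose window held no match.
Gpnmb: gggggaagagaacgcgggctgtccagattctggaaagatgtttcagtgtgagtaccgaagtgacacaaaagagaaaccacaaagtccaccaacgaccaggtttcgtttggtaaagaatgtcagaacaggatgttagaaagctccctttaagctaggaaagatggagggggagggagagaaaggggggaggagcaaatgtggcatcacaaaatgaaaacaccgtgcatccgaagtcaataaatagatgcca
Spp1: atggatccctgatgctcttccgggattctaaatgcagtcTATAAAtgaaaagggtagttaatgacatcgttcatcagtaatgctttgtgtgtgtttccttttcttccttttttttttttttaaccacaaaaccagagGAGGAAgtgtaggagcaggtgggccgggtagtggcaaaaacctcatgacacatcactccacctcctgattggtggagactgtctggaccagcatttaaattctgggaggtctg
Trem2: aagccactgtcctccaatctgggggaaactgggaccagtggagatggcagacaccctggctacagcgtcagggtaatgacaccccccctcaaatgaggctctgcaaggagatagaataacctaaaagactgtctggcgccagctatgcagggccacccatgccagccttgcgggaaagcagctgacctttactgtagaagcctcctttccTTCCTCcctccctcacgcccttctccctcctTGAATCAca
Lgals3: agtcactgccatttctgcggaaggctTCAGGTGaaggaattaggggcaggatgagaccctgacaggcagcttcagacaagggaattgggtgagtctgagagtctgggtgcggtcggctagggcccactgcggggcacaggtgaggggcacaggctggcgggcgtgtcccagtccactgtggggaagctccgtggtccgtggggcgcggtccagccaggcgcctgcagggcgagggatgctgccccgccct
Cd63: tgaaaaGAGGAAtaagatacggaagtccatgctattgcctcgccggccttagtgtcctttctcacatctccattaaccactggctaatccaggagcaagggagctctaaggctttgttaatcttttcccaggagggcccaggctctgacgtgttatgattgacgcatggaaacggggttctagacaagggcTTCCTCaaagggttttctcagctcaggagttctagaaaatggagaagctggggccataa

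In these windows 7 motifs were searched on both strands. TCANGTG, the core of the M-box that MITF and the TFE factors bind, was found in front of Lgals3 only (TCAGGTG, 224 to 218 bases before the start) and in 12.2% of all 32851 RefSeq windows of this length. GAGGAA, a core that PU.1 binds, stood in front of Spp1 (113 to 108 bases before the start), Trem2 (40 to 35, on the opposite strand) and Cd63 (244 to 239, and 59 to 54 on the opposite strand), and in 23.3% of all windows. TGANTCA, the AP-1 site, was found as TGAATCA 9 to 3 bases before the start of Trem2 and in 6.75% of all windows, and TATAAA stood 211 to 206 bases before the start of Spp1 and in 12.4% of all. CACGTG (6.02% of all windows; each match also reads as such on the other strand), the STAT site TTCNNNGAA (7.02%) and the PPAR/RXR direct repeat, 2 copies of AGGTCA with 1 base between them (0.0335%), were in none of the windows of the 7 members. No motif of the 7 was in the windows of Gpnmb, Cd9 and Plin2. These are matches of letters in a short window, and no binding was measured.

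The members differed from one another in how far they stood apart between the groups, and 3 patterns were present. Gpnmb, Fabp5, Spp1 and Lgals3 were higher in WGP by more than 2-fold, Plin2, Trem2, Fabp4 and Cd9 were higher by less or with overlapping libraries, and Cd63 and Lpl were lower in all 3 WGP libraries. Of the 10 members, 4 were called higher and 0 lower with edgeR's quasi-likelihood test (a call needed a p of 0.05 or less after Benjamini-Hochberg adjustment over all genes tested and a change of 1 or more in either direction on the log2 scale). Of all genes tested 9.49% were called, 4.53% higher and 4.96% lower. At an unadjusted p under 0.05, 7 members were higher and 2 were lower (Cd63 and Lpl). The adjusted p alone was passed by 5 higher members and by the same 2 lower ones, beside 2071 of all genes tested. Plin2, Cd63 and Lpl thus missed only the fold threshold, while Trem2, Fabp4 and Cd9 did not pass the adjusted p. DESeq2 called 5 members higher and limma-voom 4, and each called 0 lower. All 3 WGP libraries were above all 3 PBS libraries for 5 members (16% of all genes) and below for 2 (16.1% of all). Because the genes were picked with this contrast known, the values that follow describe them and no p is given for them. Their median log2 fold change was 1.08, and that of all genes tested was -0.05.

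**Figure D1:**
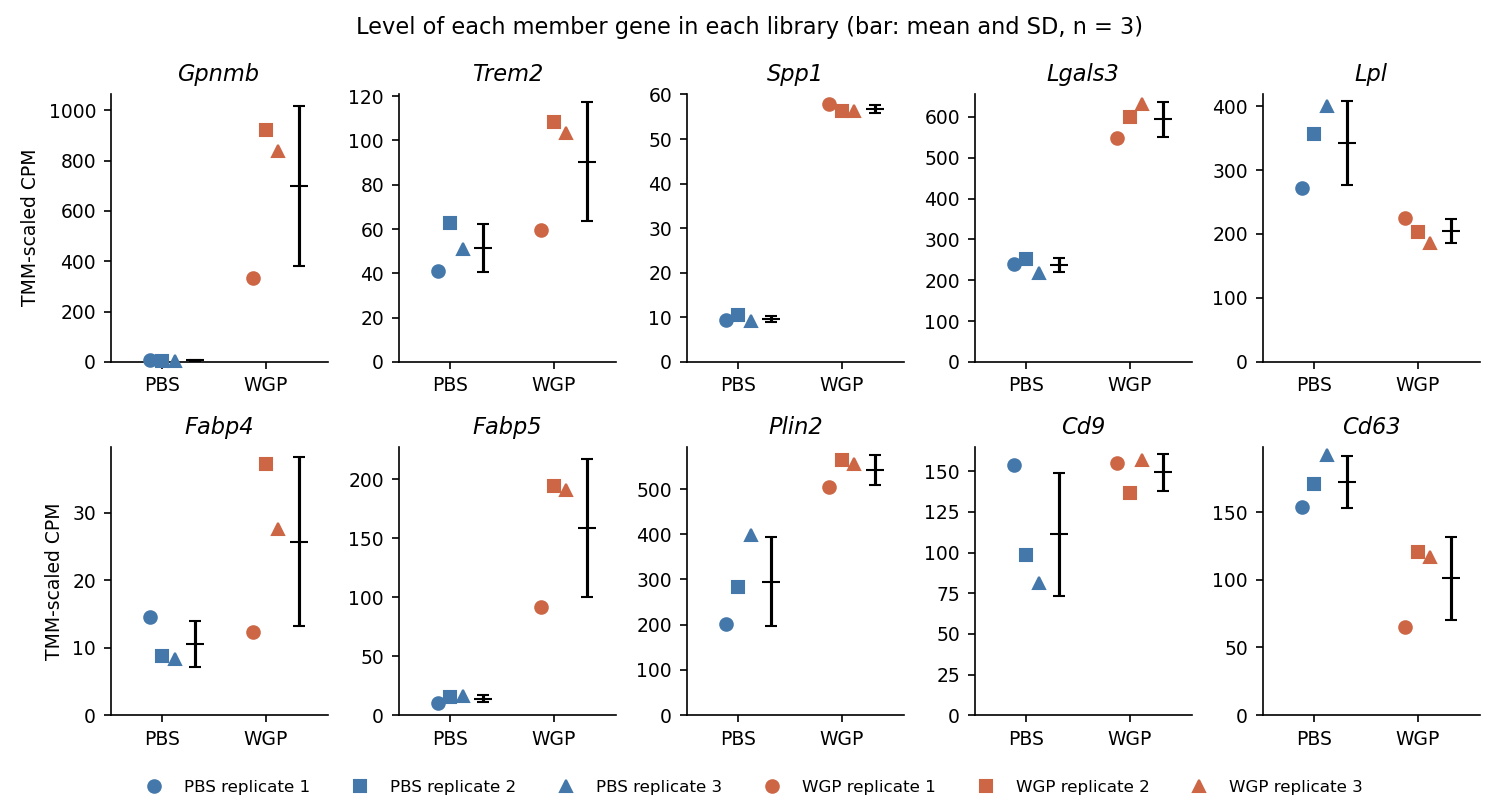
TMM-scaled CPM (vertical axis, linear, a separate scale for each gene) of the 10 members in the 3 PBS libraries (blue) and 3 WGP libraries (orange), with symbols for the replicate and a black bar for the mean and SD of the group. Gpnmb, Spp1, Lgals3, Fabp5 and Plin2 are higher in every WGP library, Cd63 and Lpl lower in every one, and in Gpnmb, Fabp4, Fabp5, Trem2 and Cd63 the circle of WGP replicate 1 lies far below the other WGP libraries.

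Gpnmb (ENSMUSG00000029816, chr6:49036546-49070929, plus strand) encodes a heavily glycosylated transmembrane protein of lysosomes and the cell surface, whose shed outer part binds integrins and syndecan-4, and it is a known target of MITF in pigment cells. Its level was 8.48, 4.85 and 5.08 CPM in the PBS libraries and 335, 922 and 839 CPM in the WGP libraries. The groups were far apart, and within WGP the first library was well below the other two. The means were 6.14 ± 2.03 and 699 ± 318 CPM, a log2 fold change of 6.83 (SE 0.44). The PBS values rest on 326, 189 and 208 counts. The most frequent low count in those libraries, read from a smoothed distribution of the counts, was 41.1, 30.5 and 27.2, a value well above 1 read. The PBS values of Gpnmb correspond to 7.93, 6.20 and 7.65 times that count, and the size of the fold rests on these low values. Over 16 alternative fits the log2 fold change lay between 6.36 (with a covariate for Y-linked counts) and 7.16 (without WGP replicate 1), and Gpnmb was called in all 16.

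Trem2 (ENSMUSG00000023992, chr17:48346401-48354147, plus strand), the lipid receptor that gives these macrophages their usual definition, was at 40.9, 62.7 and 50.9 CPM in PBS and at 59.5, 108 and 104 CPM in WGP. WGP replicate 1 lay inside the PBS range, and the other two WGP libraries lay above it. The means were 51.5 ± 10.9 and 90.4 ± 26.9 CPM and the log2 fold change was 0.81 (SE 0.25), which was not called. Over the 16 alternatives it lay between 0.66 and 1.15 and was called in 1, the fit without WGP replicate 1, at 1.04.

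Of the secreted proteins, Spp1 (ENSMUSG00000029304, chr5:104435118-104441050, plus strand) had the least spread of all members among the WGP libraries. Osteopontin, its product, is a matrix and cytokine-like protein that binds integrins and CD44. The PBS libraries held 9.31, 10.5 and 9.24 CPM and the WGP libraries 57.8, 56.2 and 56.4 CPM. The WGP libraries were nearly equal, and WGP replicate 1, low for Gpnmb, was the highest of them here. The means were 9.67 ± 0.693 and 56.8 ± 0.855 CPM, a 5.87-fold difference of the means and a log2 fold change of 2.55 (SE 0.19) that was called in all 16 alternatives (2.45 to 2.61). Of the 50-base stretches of its exons 11.6% are shared with 1 other annotated gene, so its reads could be split there.

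Lgals3 (ENSMUSG00000050335, chr14:47367751-47386160) encodes galectin-3, a β-galactoside-binding lectin that gathers on damaged lysosomes and is released by activated macrophages. It was abundant in both groups, at 239, 252 and 219 CPM in PBS and at 548, 601 and 633 CPM in WGP. The groups did not overlap and each was tight. The means were 237 ± 16.9 and 594 ± 42.8 CPM and the log2 fold change was 1.33 (SE 0.14), called in all 16 alternatives between 1.22 and 1.38.

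Lpl (ENSMUSG00000015568, chr8:68880491-68907448) encodes lipoprotein lipase, which frees fatty acids from circulating and tissue lipoproteins, and it stood on the other side of these. The PBS libraries held 271, 357 and 400 CPM and the WGP libraries 224, 204 and 186 CPM. Every WGP library was below every PBS library. The log2 fold change was -0.74 (SE 0.17) from 343 ± 65.7 to 205 ± 19.3 CPM, and it was called in none of the 16 alternatives, where it ran from -0.89 to -0.41, the last with the Y-linked covariate.

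The 2 fatty acid-binding proteins are neighbours on chromosome 3, with 187 kb between the genes, and they differed in level and in spread. FABP5 (Fabp5, ENSMUSG00000027533, chr3:10012548-10016607) is the form widespread among leukocytes and epithelia, and FABP4 (Fabp4, ENSMUSG00000062515, chr3:10204088-10208576) is the form of fat cells, capillary endothelium and some macrophages. Fabp5 was at 10.3, 15.5 and 16.2 CPM in PBS and at 91.5, 194 and 191 CPM in WGP. No libraries overlapped between the groups, and WGP replicate 1 was again below the other two. Its means were 14.0 ± 3.23 and 159 ± 58.4 CPM and its log2 fold change was 3.50 (SE 0.31), called in all 16 alternatives between 3.32 and 3.94. Of its 50-base stretches 5.48% are shared with 5 other annotated genes.

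Fabp4 was at 14.5, 8.80 and 8.28 CPM in PBS and at 12.4, 37.2 and 27.5 CPM in WGP, so that WGP replicate 1 was below PBS replicate 1. Its log2 fold change of 1.29 (SE 0.41), from 10.5 ± 3.44 to 25.7 ± 12.5 CPM, was not called. It was called in 4 of 16 alternatives: with DESeq2 (1.28), with counts divided by the reads per molecule (1.30), without PBS replicate 1 (1.59) and without WGP replicate 1 (1.62). Endothelial markers, which mark the vessels that also make FABP4, summed to 121, 52.4 and 31.5 CPM in PBS and to 51.9, 79.2 and 52.1 CPM in WGP. Pecam1, which leukocytes also express, made up most of the PBS sum (102.5 CPM in PBS replicate 1), and of the other 7 markers 2 were above PBS in every WGP library. Kdr was at 3.90, 7.91 and 1.73 CPM in PBS and at 21.0, 36.2 and 20.4 CPM in WGP and was the 1 of the 8 called (higher), and Vwf was at 3.88 to 4.52 CPM and at 8.17 to 11.2 CPM. Cdh5 was at most 6.14 CPM and Emcn, Tek, Tie1 and Gpihbp1 at most 2.34 CPM in any library, and the part of endothelial cells in the level of Fabp4 was not tested. The sort gate was CD45+CD11b+, which endothelial and fat cells should not pass. Acinar cells and fibroblasts should not pass it either, and their markers were present, as given above. Of the fat cell genes Adipoq was at 0.913 ± 0.400 CPM in PBS and 0 in every WGP library, and Lep was at 0 in all 6. Of the 8 fat cell markers tested 1 was higher in WGP and 7 were lower. Car3 was at 7.49, 18.9 and 11.1 CPM in PBS and at 4.75, 2.07 and 0.928 CPM in WGP and was called lower. Lipe, the higher one, was at 48.9 ± 10.1 and 86.5 ± 12.6 CPM. The markers summed to between 57.6 and 72.8 CPM in PBS and between 76.8 and 104 CPM in WGP. The part of fat cells in the level of Fabp4 was not tested.

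Plin2 (ENSMUSG00000028494, chr4:86648386-86670060), the droplet coat protein, was at 202, 283 and 399 CPM in PBS and at 503, 565 and 556 CPM in WGP. The WGP libraries lay close together above all PBS libraries, which differed among themselves. The means were 295 ± 98.9 and 541 ± 33.2 CPM and the log2 fold change was 0.88 (SE 0.22), which was not called. It was called in 2 of 16 alternatives, at 1.16 without PBS replicate 3 and at 1.42 with the Y-linked covariate, and was at 0.66 without PBS replicate 1.

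The tetraspanins CD9 and CD63 organise membrane patches and are used as markers of exosomes, CD63 being the one that is concentrated in late endosomes and lysosomes. Cd9 (ENSMUSG00000030342, chr6:125460266-125494791) was at 154, 98.5 and 81.5 CPM in PBS and at 155, 136 and 157 CPM in WGP, with PBS replicate 1 inside the WGP range. Its log2 fold change was 0.43 (SE 0.22), from 111 ± 37.7 to 149 ± 11.3 CPM, it was never called, and it went from -0.04 with the Y-linked covariate to 0.73 without PBS replicate 1. PBS replicate 1 was also the library with the most B cell marker counts, 2414 CPM. Cd63 (ENSMUSG00000025351, chr10:128900989-128912822) was at 153, 171 and 192 CPM in PBS and at 65.4, 120 and 117 CPM in WGP. Its groups did not overlap, and the log2 fold change of -0.77 (SE 0.22), from 172 ± 19.3 to 101 ± 30.8 CPM, stayed between -0.92 and -0.53 and was called in none of 16 alternatives. Shared 50-base stretches made up 14.4% of Cd9 and 11.1% of Cd63.

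**Figure D2:**
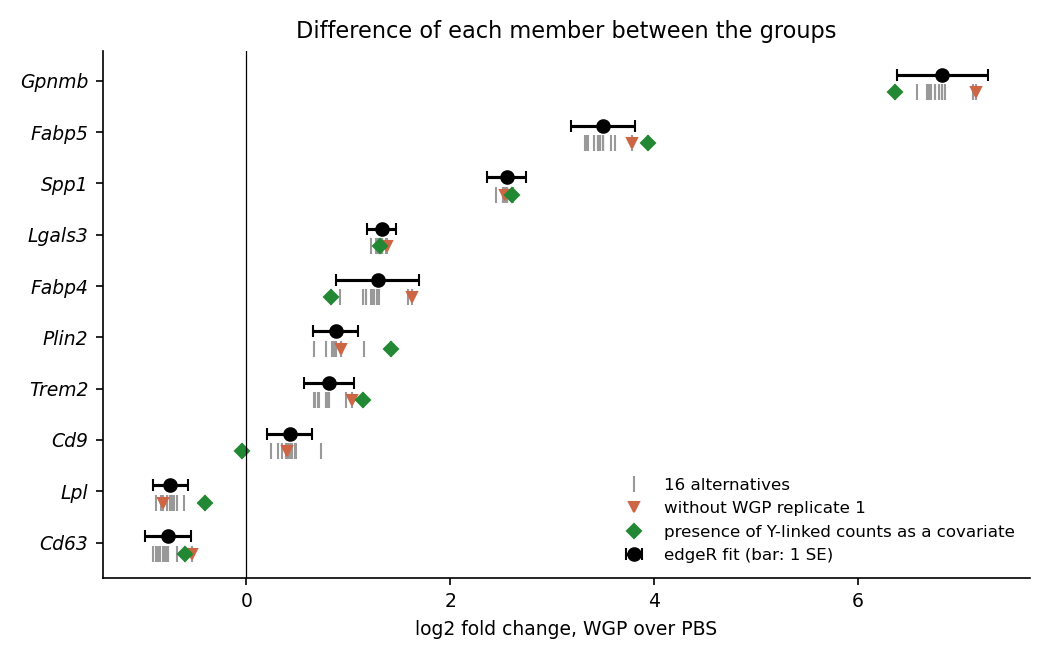
Log2 fold change of WGP over PBS (horizontal axis) of the 10 members, ordered by size, with the edgeR estimate and 1 SE in black and the 16 alternative fits as grey ticks below it, of which the fit without WGP replicate 1 is an orange triangle and the fit with Y-linked counts as a covariate a green diamond. Gpnmb lies between 6.36 and 7.16, Cd63 and Lpl stay below 0, and Cd9 crosses 0 under the covariate.

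The spread within WGP was shared by several members. WGP replicate 1 had the lowest level of the 3 WGP libraries in 7 of 10 members, beside 31% of the 11681 genes with a mean of at least 1 CPM and 44.3% of the genes called higher. Its level divided by the mean of the other two was 0.380 for Gpnmb, 0.382 for Fabp4, 0.475 for Fabp5, 0.551 for Cd63 and 0.562 for Trem2, and between 0.888 and 1.15 for Lgals3, Plin2, Spp1, Cd9 and Lpl. A ratio of 0.6 or less was found in 5 members and in 11.1% of the 11681 genes. Among the 116 other genes of the pathway lists below with a mean of at least 1 CPM, 9 had such a ratio (7.76%, below the share of all genes), among them Marco (0.309) and Cd36 (0.533), and WGP replicate 1 was the lowest in 41.4%. The summed macrophage and monocyte markers were 4837, 4980 and 4988 CPM in WGP replicates 1 to 3, of which Csf1r made up 2812, 2584 and 2743 CPM. Mertk was at 99.3, 182 and 201 CPM and Cd68 at 796, 936 and 926 CPM. Adgre1 (470, 526 and 469 CPM), Fcgr1 (272, 333 and 270 CPM) and Itgam (388, 418 and 379 CPM) were lowest in WGP replicate 3. Eosinophil markers summed to 88.3, 34.0 and 34.6 CPM. The most frequent low count of WGP replicate 1 was 17.9, against 31.5 and 28.9 in the other WGP libraries. The part of this count and of cell types in the spread was not tested.

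**Figure D3:**
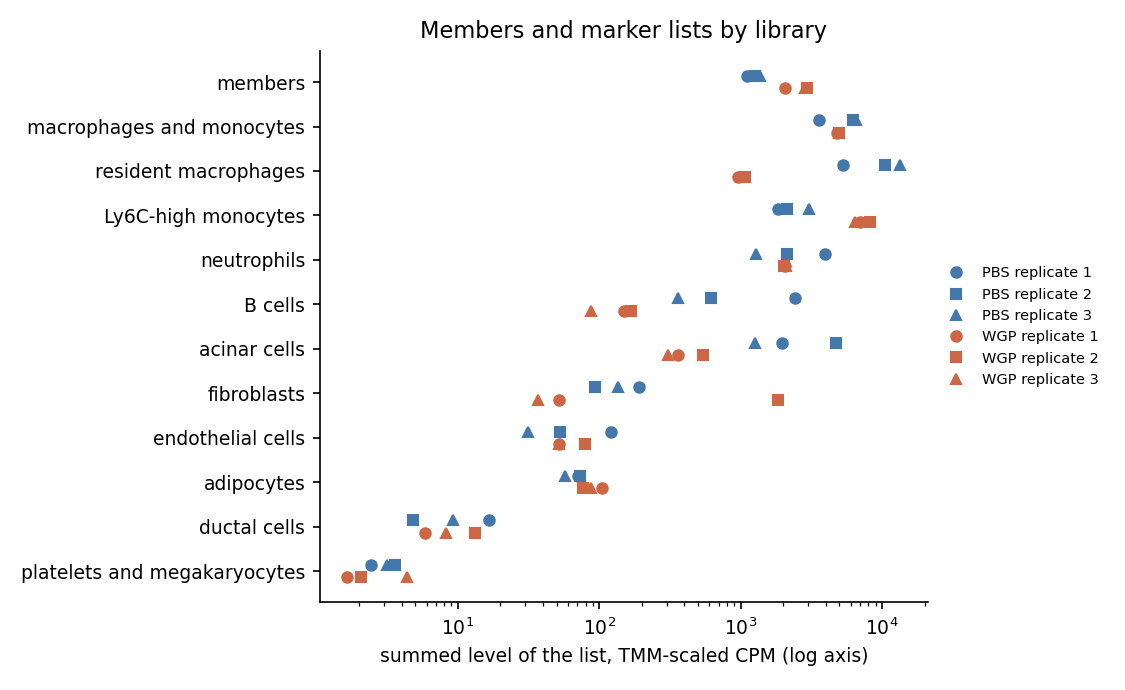
Summed TMM-scaled CPM (horizontal log axis) of the 10 members and of marker lists of other cell types, with a symbol for each of the 3 PBS (blue) and 3 WGP (orange) libraries. Members sum to between 1103 and 1381 CPM in PBS and between 2052 and 2945 CPM in WGP, resident macrophage and acinar markers are lower in WGP, and WGP replicate 2 stands apart in fibroblast markers.

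Levels of different genes can be compared only per length, and the order of the members changed between the groups. In CPM per kilobase of exon the PBS order was Lgals3 (127 ± 9.09), Plin2 (84.0 ± 28.1), Cd9 (54.4 ± 18.4), Cd63 (46.7 ± 5.23), Lpl (32.7 ± 6.27), Trem2 (10.4 ± 2.21), Spp1 (5.87 ± 0.420), Fabp5 (3.93 ± 0.904), Fabp4 (2.34 ± 0.767) and Gpnmb (0.942 ± 0.312). Among neighbours in this order the libraries of Plin2 and Cd9, of Cd9 and Cd63, and of Fabp5 and Fabp4 overlapped. In WGP the order was Lgals3 (320 ± 23.0), Plin2 (154 ± 9.46), Gpnmb (107 ± 48.8), Cd9 (73.1 ± 5.54), Fabp5 (44.6 ± 16.4), Spp1 (34.5 ± 0.519), Cd63 (27.4 ± 8.38), Lpl (19.5 ± 1.84), Trem2 (18.3 ± 5.44) and Fabp4 (5.72 ± 2.79). Gpnmb and Cd9, Fabp5 and Spp1, Cd63 and Lpl, and Lpl and Trem2 overlapped there, and Plin2 and Gpnmb were separated by less than the SD of Gpnmb. Gpnmb went from rank 10 of the members in PBS to rank 3 in WGP, and among all genes tested from rank 10294 to rank 399. Trem2 was at rank 9 in WGP. With coding length in place of exon length Lgals3 and Gpnmb were again at ranks 1 and 3 in WGP, while Spp1 moved to rank 10 and Fabp5 to rank 4. In PBS Lgals3 and Gpnmb were again at ranks 1 and 10, Lpl moved from rank 5 to rank 2, Plin2 from 2 to 4 and Spp1 from 7 to 9. Per coding length Lpl (241 ± 46.2), Cd63 (241 ± 27.0) and Plin2 (231 ± 77.5) differed by less than their SD in PBS. In WGP the same held for Gpnmb (395 ± 180) and Fabp5 (392 ± 144), and for Fabp4 (64.9 ± 31.6) and Spp1 (64.2 ± 0.966).

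**Figure D4:**
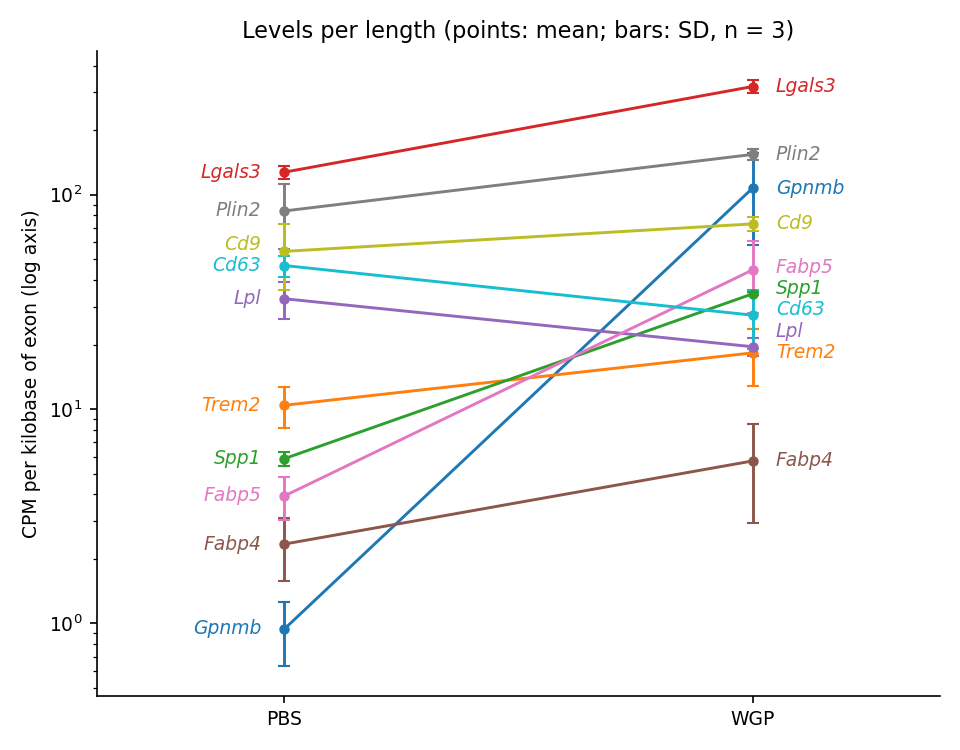
CPM per kilobase of exon (vertical log axis) of each member in PBS and WGP, as mean and SD of 3 libraries joined by a line. The line of Gpnmb runs from 0.942 to 107, those of Fabp5 and Spp1 from 3.93 to 44.6 and from 5.87 to 34.5, and those of Cd63 and Lpl downwards.

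The other genes of the same pathways were taken from lists written by function. Of the 128 tested that are not members 34 were called (26.6%, beside 9.49% of all genes), 27 higher (21.1%, beside 4.53%) and 7 lower (5.47%, beside 4.96%). The lists were made with results of these data known and most genes named are those with the smallest p of their list, so the p-values, adjusted over all genes tested, describe these genes and are no independent evidence on a list. TREM2's partners were present in both groups: of 11 genes 2 were called higher and 1 lower, with a median log2 fold change of 0.41. Adam17, the protease that can cleave TREM2 from the surface, rose by 1.17 on the log2 scale (SE 0.14, edgeR adjusted p = 0.000382), and Ms4a6d, of a family tied to soluble TREM2, by 1.64 (SE 0.29). Apoe, which encodes an apolipoprotein that is a ligand of TREM2, was the most abundant gene of the list. It was at 11436 ± 3669 CPM in PBS and 4603 ± 997 CPM in WGP, a log2 fold change of -1.31 (SE 0.27). This call was lost with the Y-linked covariate, where it was -0.66 (edgeR adjusted p = 0.0854, and between 1.563e-06 and 0.0854 over the 16 alternatives). Tyrobp had a log2 fold change of 0.53 and Syk had 0.15, neither called. Of the 5 other TREM genes tested all had a log2 fold change above 0, and 2 were called higher, Treml4 (1.39, SE 0.23), from 33.5 ± 8.91 to 87.5 ± 17.8 CPM, and Treml2 (1.73, SE 0.29), at 21.4, 11.5 and 11.6 CPM in PBS and 55.7, 37.7 and 54.1 CPM in WGP. Treml1, a platelet gene, was at 0 in the PBS libraries and at 0, 0.482 and 3.10 CPM in WGP.

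Receptors for osteopontin and for shed GPNMB were mixed, with 1 of 9 called higher and 1 lower. The integrin Itga9 fell by 2.08 on the log2 scale (SE 0.28, edgeR adjusted p = 0.000721), from 103 ± 36.4 to 24.3 ± 4.75 CPM, and Itga5 rose by 1.12 (SE 0.19). The Itga5 call fell below the fold threshold without PBS replicate 1 and without WGP replicate 2 (both 0.97). Itga4 (0.82) and Cd44 (0.74) passed the adjusted p but not the fold threshold. Of the 4 MiT/TFE factors, the family that controls lysosomal genes and to which MITF belongs, only Tfec was called, with 10.3 to 14.8 CPM in the PBS libraries and 24.3 to 31.5 CPM in the WGP libraries (log2 fold change 1.07, SE 0.25), and it was not called in 4 of 16 alternatives. Mitf had a log2 fold change of 0.33, Tfe3 0.20 and Tfeb 0.09, and with the Y-linked covariate Mitf was called at 1.03 (edgeR adjusted p = 0.0108, and between 0.0108 and 0.8115 over the alternatives).

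Among 14 genes of lipoprotein and lipid uptake 3 were called higher and 1 lower, and the scavenger receptors went both ways. DESeq2 and limma-voom each called 3 higher and 2 lower. Cd36, which takes up oxidised lipoproteins and fatty acids, was at 501, 874 and 1100 CPM in PBS and at 99.4, 244 and 129 CPM in WGP, a log2 fold change of -2.39 (SE 0.36, edgeR adjusted p = 0.00151). This ran from -2.85 to -1.67 over the 16 alternatives, and Cd36 was called in all. Olr1, a receptor for oxidised lipoproteins, rose by 2.83 (SE 0.54), from 6.06 ± 3.97 to 43.1 ± 12.8 CPM, and by 2.37 to 4.81 over the 16 alternatives. Msr1, the scavenger receptor A, rose by 1.27 (SE 0.30). Msr1 was not called without PBS replicate 2 (1.20) or without WGP replicate 2 (1.02). Marco rose by 2.27 (SE 0.52), from 37.0 ± 23.8 to 179 ± 102 CPM. Without PBS replicate 2 it was 2.14 and no longer called (edgeR adjusted p = 0.0736, the highest over the 16 alternatives, whose lowest was 0.000988).

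Storage of lipid was the list nearest to Plin2, and of its 19 tested genes 4 were called higher and 0 lower, with a median of 0.41. At an unadjusted p under 0.05, 7 were higher and 1 lower, and DESeq2 called 1 lower and limma-voom 0. Acsl1, which activates fatty acids for use, was at 75.8, 81.4 and 73.4 CPM in PBS and at 324, 466 and 371 CPM in WGP, a log2 fold change of 2.33 (SE 0.17, edgeR adjusted p = 1.97e-05). Soat1, which makes cholesteryl esters, rose by 1.68 (SE 0.20), Hilpda, which inhibits the lipase ATGL at the droplet, by 1.71 (SE 0.33), and Dgat2, which makes triglycerides, by 1.49 (SE 0.33). Dgat2 was not called with the Y-linked covariate (1.31). The lipases Pnpla2 (0.48) and Lipe (0.82) passed the adjusted p alone. The other perilipins were either not called, as Plin3 (-0.25), or near 0, as Plin1, Plin4 and Plin5, each below 1 CPM in both groups.

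Of 11 genes for lysosomal lipid release and sterol efflux 3 were called higher and 1 lower. Psap, the precursor of the saposins that help to degrade lipids in the lysosome, rose from 3822 ± 593 to 8980 ± 480 CPM (1.23, SE 0.17), Abcg1, a sterol exporter, rose by 1.10 (SE 0.15) and Lpcat3, which remodels phospholipids, by 1.04 (SE 0.23). Lpcat3 fell below the fold threshold in 4 of 16 alternatives: with library totals only (0.94), without PBS replicate 1 (0.87), without PBS replicate 3 (0.98) and without WGP replicate 2 (0.94). Mylip, which degrades the LDL receptor, fell by 1.47 (SE 0.18, edgeR adjusted p = 0.00039). Of the 6 lipid-sensing nuclear receptors tested 1 was called. Nr1h3, the oxysterol receptor LXRα, was at 13.5, 7.91 and 17.2 CPM in PBS and at 48.2, 55.6 and 51.1 CPM in WGP (2.01, SE 0.28, edgeR adjusted p = 0.000949). Ppard had a log2 fold change of 0.67 and Pparg, the receptor known to control Fabp4 and Cd36, one of -0.97 (SE 0.39), neither called, and Ppara was at 0 in all libraries.

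**Figure D5:**
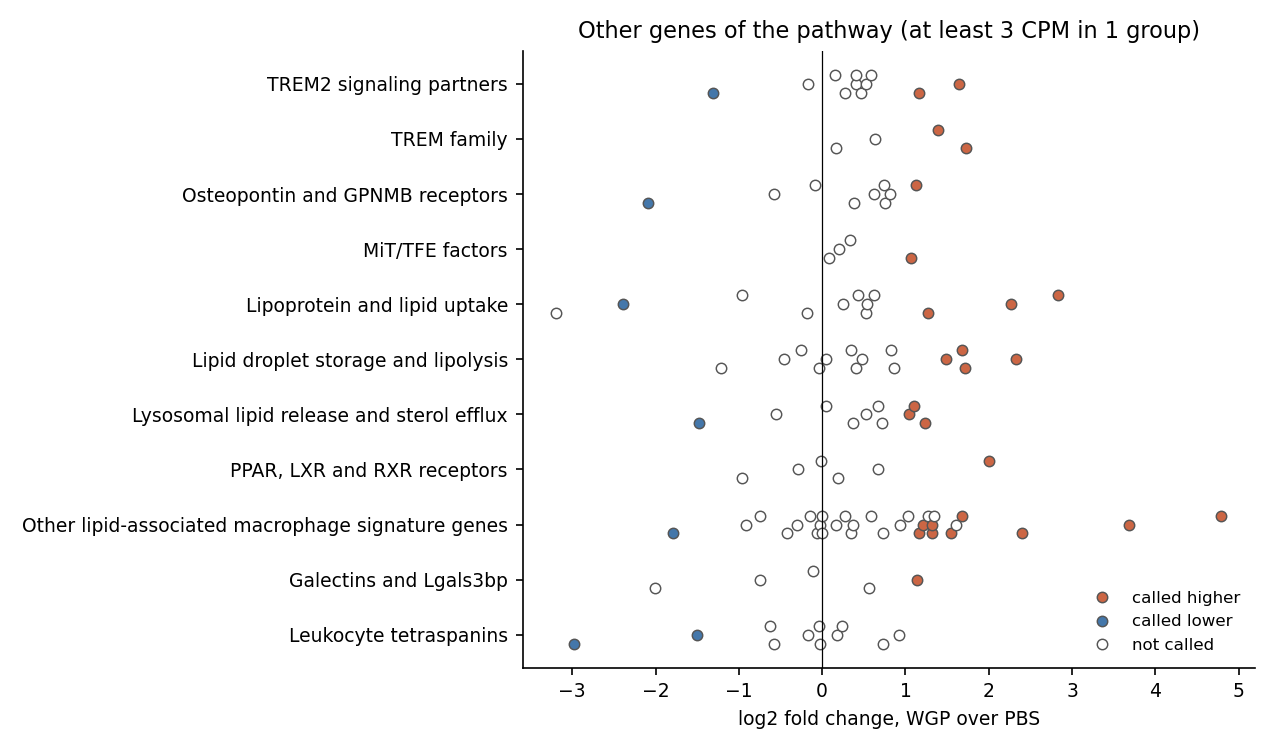
Log2 fold change of WGP over PBS (horizontal axis) of the genes of 11 lists that are not members and reach a mean of 3 CPM in a group, 1 point a gene, filled orange where called higher, blue where called lower and white where not called. Fatty acid-binding proteins are not drawn, since none of the others reached 3 CPM, the tetraspanins have no orange point, and Mmp14 lies farthest right at 4.79.

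Among 30 further genes used to describe lipid-associated macrophages 9 were called higher and 1 lower, with a median of 0.66. The membrane protease Mmp14 rose by 4.79 on the log2 scale (SE 0.22) and the growth factor Csf1 by 2.40 (SE 0.17), and the cathepsins Ctss, Ctsd, Ctsz and Ctsk rose by 1.68, 1.55, 1.16 and 3.68, while Ctsb (-0.01, SE 0.24) and Ctsl (-0.06, SE 0.20) were not called. Ctsk was the least abundant, at 1.13 ± 0.805 CPM in PBS and 14.4 ± 7.25 CPM in WGP, and it was not called with limma-voom (3.77) or with the Y-linked covariate (2.81). Igf1, insulin-like growth factor 1, fell by 1.79 (SE 0.36), beside the lower resident macrophage markers given above, and was not called with the covariate (-1.12). Cd68, the lysosomal glycoprotein used to stain macrophages, was at 900 ± 146 and 886 ± 77.9 CPM.

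Of the 6 other galectin genes tested edgeR and limma-voom called 0, and DESeq2 called 1 lower, a number too small to set against the 9.49% of all genes called. At an unadjusted p under 0.05, 1 was higher and 2 were lower. Lgals8 was at 83.3 ± 10.3 CPM in PBS and 123 ± 12.5 CPM in WGP (0.56, SE 0.16), below the fold threshold. Lgals1 was at 316 ± 19.8 CPM in PBS and 188 ± 40.1 CPM in WGP (-0.75, SE 0.17), also below it. Lgals3bp, which is no galectin but encodes a binding protein of galectin-3, rose by 1.14 (SE 0.20), at 0.99 and not called without PBS replicate 1. Of the 10 fatty acid-binding protein genes only 4 were tested, and 6 were at 0 in every library. Beside Fabp4 and Fabp5 these were Fabp3, at 0 in PBS and at 0.760, 1.69 and 1.91 CPM in WGP, which edgeR did not call and DESeq2 and limma-voom did, and Fabp7, at most 3.57 CPM in any library. Among 11 other tetraspanins 0 were called higher and 2 lower by edgeR as by DESeq2 and limma-voom, with a median of -0.04, beside 4.53% and 4.96% of all genes. At an unadjusted p under 0.05, 2 were higher and 3 lower, of which Cd82 (0.73, SE 0.15) passed the adjusted p on the higher side. Cd81 fell from 504 ± 121 to 63.8 ± 23.7 CPM (-2.98, SE 0.28, edgeR adjusted p = 9.1e-05). Cd37 was at 808, 384 and 373 CPM in PBS and at 195, 177 and 180 CPM in WGP, and it was called lower (edgeR adjusted p = 0.00456), and PBS replicate 1 was the highest for it as for the B cell markers.

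The genes with the pattern most like that of Gpnmb over the 6 libraries were found by the root-mean-square difference of centred log2(CPM + 0.5). The nearest 5 of the genes tested that are not members were Tgtp1 (0.461), Cxcl9 (0.615), Saa3 (0.662), Gbp5 (0.772) and F7 (0.820). In Cxcl9, Saa3 and Gbp5 as in Gpnmb, WGP replicate 1 was the lowest WGP library and WGP replicate 2 the highest, at 712 and 1717 CPM for the chemokine Cxcl9 and at 384 and 1233 CPM for the acute-phase protein Saa3. Tgtp1, an interferon-induced GTPase with a near-identical copy, was at or near 0 in PBS and its place depends on the constant added: with 5 in place of 0.5 the nearest were Arg1, Saa3, Cxcl9, Ly6i and Gbp5, of which 3 are in both. Of the members Fabp5 (1.67) and Spp1 (2.14) were nearest to Gpnmb and Cd63 and Lpl (both 3.74) were the farthest. For the members this order is that of their log2 fold changes. Within WGP, replicate 1 was the lowest library for Gpnmb and the highest for Spp1.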

How the data were processed

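The deposited values are raw counts per Ensembl gene, 1 column per library. The authors aligned single-end reads to mm10 with STAR 2.6 and counted them with HTSeq 0.10.0, per the submitters' processing notes. The annotation release, the strand setting and the treatment of duplicate reads are not given in the sources used here. The count table holds no normalization, so scaling, filter and test were applied here. In R 4.3.3, edgeR 4.0.16 tested WGP against PBS with its quasi-likelihood test after TMM scaling, over the 14429 protein-coding genes whose RLE-normalized counts summed to 10 or more. Calls needed 0.05 or less after Benjamini-Hochberg adjustment and a log2 change of 1 or more either way, and the SE is the fold change divided by the root of F. The script was tested on simulated data. Total counts were 35334645 to 43341834 a library. The most frequent low count, between 17.9 and 41.1, was taken as the reads per molecule, and duplicate reads were not examined. If this reading holds, low values are less precise than their size implies. DESeq2 1.42.0 and limma 3.58.1 (voom) were alternatives.

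Lengths, positions and names are from GENCODE vM21 and windows from RefSeq, both GRCm38. Genes named are the members, the 3 of each list with the smallest p, called relatives of the members, defining markers and the 5 most like Gpnmb. Msr1, Dgat2, Pnpla2, Lipe, the other perilipins, Lpcat3, Tyrobp, Syk, Cd44, Tfeb, Ppara, Ctsb, Ctsd, Ctsl, Ctsz, Ctsk and Igf1 are outside this rule and were added with their values in view. The members and lists were chosen with earlier results of these data known. Identity between the proteins of related members was not analysed here.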

Additional observations from a re-analysis of the deposited data

How the results depend on the processing

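The 18 alternatives were RLE, upper-quartile and library-total scaling, DESeq2, limma-voom, filters of at least 1 count in any library and filterByExpr, a replicate block, a covariate for Y-linked counts, counts divided by reads per molecule, each of the 6 libraries left out, and other fold thresholds. Of the members' fold changes 169 kept their side of the thresholds, all in the same direction except Cd9 with the Y-linked covariate (-0.04 against 0.43), 10 became called, 1 call was lost (Lgals3, at a log2 threshold of 2), and none that was called changed sign. Without a fold threshold 2071 genes were called, and 2 members were lower (Cd63 and Lpl). At a log2 threshold of 2, 568 genes and 10 pathway genes were called, since fewer can pass. Leaving out a library gave 1146 to 1396 genes, 4 to 6 members called higher and 32 to 36 pathway genes. Scaling to library totals moved the median of all genes by -0.10, with 554 genes called higher and 824 lower in place of 653 and 716. Same-numbered libraries showed no shared deviation (correlations of 0.0402, -0.0878 and 0.0634), though 3 libraries a group are too few to exclude pairing by number. The replicate block gave 1341 genes, 4 members higher and 34 pathway genes. The covariate rests on PBS replicate 1 alone for its PBS level free of Y-linked counts. Of 21 ranks and likeness results 14 moved with coding length or the constant. The lowest counts of members, against the most frequent low count, were those of Gpnmb, Spp1, Fabp4 and Fabp5 in PBS.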
